A study of Mus musculus with 2 samples.

Results

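The genes examined here encode parts of the pathway that runs from Ras to the ERK kinases: the small GTPases Hras, Nras and Rras2 (R-Ras2), the kinase Braf, the MAP kinase kinases Map2k1 (Mek1) and Map2k2 (Mek2), and the kinase Mapk3 (Erk1). They were taken by name, and the regions of the Etv4 and Etv5 lists that lay inside each gene or within 50 kb of it were then collected. The 7 genes were drawn from 21938 protein-coding genes. Their neighbourhoods held 20 of the 13636 Etv4 regions and 10 of the 8297 Etv5 regions. Because the genes were proposed with results of these data in view, the presence of regions near them is a description.

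The data came from EpRas, a transformed line that carries oncogenic H-Ras and was derived from the mouse mammary epithelial line EpH4. For both libraries alike, it was grown in 4% FBS and fixed 1.5 h after addition of TGF-β3 (1 ng/ml). One library was made by ChIP-seq with a rabbit polyclonal antibody to Etv4 and the other with a mouse monoclonal antibody to Etv5, so that there was 1 library per antibody and no replicate. Each list gives the positions of enriched regions without read counts. The sequencing depth is therefore unknown, no difference between the lists could be set against replicate error, and the epithelial label could not be checked against marker expression. No list from untreated or parental cells, nor from a control antibody, was used here.

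Ras proteins are switches that are active when bound to GTP. Active Ras recruits Raf kinases such as Braf to the membrane, Raf phosphorylates Mek1 and Mek2, and these phosphorylate the ERK kinases. ERK signalling raises the expression and activity of the PEA3 group of ETS factors, to which Etv4 and Etv5 belong, and ETS proteins bind DNA around a GGAA core. The pathway thus lies upstream of both factors, and the question addressed here was where the factors were listed along its own genes.

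Etv4 regions spanned the starts of Nras, Map2k1 and Map2k2, and the Etv5 list had no region within 2 kb of the start of any of the 7 genes. The promoter sequences of these 3 genes are shown because Etv4 regions covered 280 of 300 bases at Nras and all 300 at Map2k1 and Map2k2. The promoter of Hras, with no region of either list, is shown for contrast. They are taken from RefSeq (GRCm38.p6), in the direction of transcription, from 250 bases before to 50 bases after the RefSeq start. Capitals mark each GGAA core, which reads TTCC where it lies on the opposite strand. The positions are chr3:103058035-103058334 (plus strand) for Nras, chr9:64253556-64253855 (minus strand) for Map2k1, chr10:81105665-81105964 (plus strand) for Map2k2 and chr7:141193955-141194254 (minus strand) for Hras.
Nras: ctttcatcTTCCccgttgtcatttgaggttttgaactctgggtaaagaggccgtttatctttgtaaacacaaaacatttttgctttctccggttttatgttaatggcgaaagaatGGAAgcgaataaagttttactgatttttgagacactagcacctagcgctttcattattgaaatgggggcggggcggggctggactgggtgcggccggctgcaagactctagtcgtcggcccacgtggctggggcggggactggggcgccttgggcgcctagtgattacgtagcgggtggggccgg
Map2k1: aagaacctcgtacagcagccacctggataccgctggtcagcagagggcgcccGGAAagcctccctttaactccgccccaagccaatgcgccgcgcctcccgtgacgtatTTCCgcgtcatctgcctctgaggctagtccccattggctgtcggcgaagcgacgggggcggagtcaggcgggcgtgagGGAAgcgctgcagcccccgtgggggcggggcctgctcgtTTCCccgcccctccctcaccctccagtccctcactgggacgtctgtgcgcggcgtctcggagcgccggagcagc
Map2k2: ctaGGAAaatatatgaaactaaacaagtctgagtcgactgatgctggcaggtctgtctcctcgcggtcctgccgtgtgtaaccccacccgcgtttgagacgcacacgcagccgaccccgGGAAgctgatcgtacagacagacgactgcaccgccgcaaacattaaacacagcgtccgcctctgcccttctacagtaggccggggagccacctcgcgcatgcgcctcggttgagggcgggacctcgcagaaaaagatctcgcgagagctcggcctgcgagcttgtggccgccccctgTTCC
Hras: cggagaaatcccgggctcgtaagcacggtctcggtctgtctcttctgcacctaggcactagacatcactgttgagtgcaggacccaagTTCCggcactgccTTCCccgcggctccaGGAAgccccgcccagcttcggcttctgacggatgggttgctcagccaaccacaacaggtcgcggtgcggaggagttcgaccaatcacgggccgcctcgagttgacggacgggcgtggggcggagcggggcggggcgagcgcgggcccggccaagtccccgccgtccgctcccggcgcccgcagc

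The numbers of GGAA cores overlapped between promoters with and without an Etv4 region. There were 2 cores in the Nras promoter, 4 in Map2k1, 3 in Map2k2 and 3 in Hras, compared with a median of 3 over 32851 RefSeq promoters. The promoters of Rras2 and Braf, which also had no region at the start, held 2 and 4 cores. None of the 6 promoters found in the table contained either of the 8-letter ETS patterns, CCGGAAGT and CAGGAAGT, which include the core and were searched on both strands. Across all promoters 7.07% had one (interval 6.79 to 7.35%). The Sp/KLF pattern GGGCGG was present in all 6, from 1 match in Braf to 4 in Map2k1, and in 35.7% of all promoters. The GC content was 52.3% in Nras and 60.3 to 69.0% in the others, against a median of 52.7% over all promoters. How far this contributed to the Sp/KLF matches was not tested.

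A strict ETS match did lie in the Nras region, across the end of the promoter window, so that only its first letters are in the promoter shown. It is CCGGAAGT on the plus strand at 103058331 to 103058338, with its centre 50 bp after the start of the gene, and it is shown with its surroundings (chr3:103058305-103058364, plus strand, match in capitals).
Nras start: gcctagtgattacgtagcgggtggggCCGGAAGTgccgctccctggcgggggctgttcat

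Nras encodes one of the classical Ras GTPases (chromosome 3, plus strand, 103058285 to 103067914, GENCODE on GRCm38). Its Etv4 region ran from 103058055 to 103058822, a length of 768 bp, with the midpoint 153 bp into the gene. Among the 13636 Etv4 regions it carried number 8598, at 63.1% of the list. The nearest Etv5 region was 398 kb away. The only other Etv4 region in the neighbourhood lay 37.6 kb upstream and did not overlap an Etv5 region.

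Map2k1 (chromosome 9, minus strand, 64185770 to 64253631) had its Etv4 region centred on the start, with the midpoint at 11 bp. This region ran from 64253316 to 64253924 (609 bp, number 3006, at 22.0% of the list) and had a GC content of 68.0%. The other 2 Etv4 regions lay beyond the end of the gene, at the starts of Snapc5, a subunit of the snRNA-activating complex, and Rpl4, a ribosomal protein gene. Their midpoints were 29 and 27 bp from those starts. No Etv5 region was found within 50 kb of Map2k1. The nearest was 86.5 kb from the Etv4 region at the start.

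Map2k2 (chromosome 10, plus strand, 81105915 to 81133975) had a short Etv4 region at its start, from 81105646 to 81106046 (401 bp), with the midpoint 69 bp upstream. Its number, 11190, put it at 82.1% of the list. The nearest Etv5 region was 61.4 kb away. The Mek genes thus resembled each other in having an Etv4 region and no Etv5 region at the start, but their regions stood far apart in the order of the list.

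**Figure D1:**
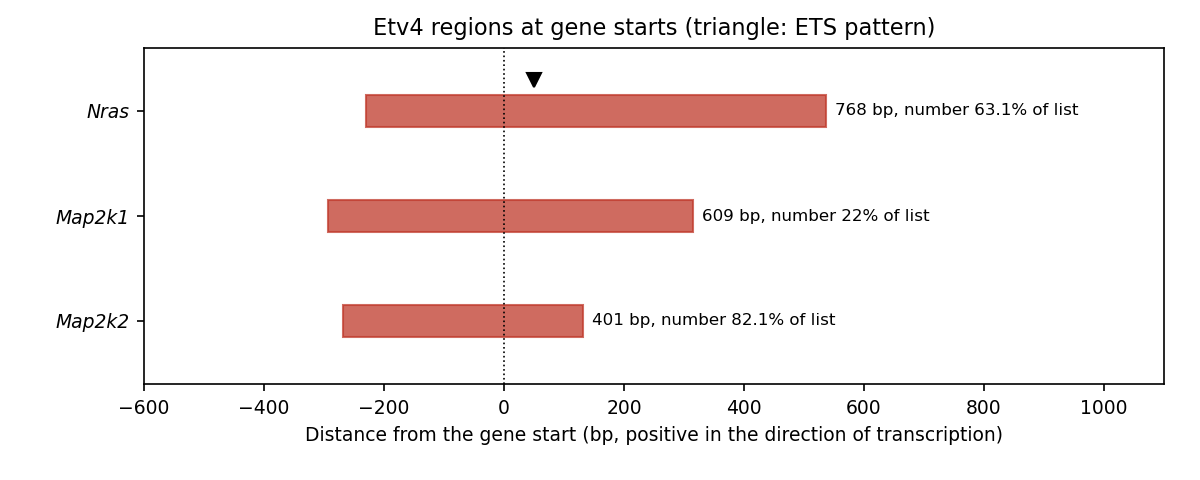
Extent of the Etv4 regions at the starts of Nras, Map2k1 and Map2k2, in bp from the gene start (x axis, positive in the direction of transcription), with 1 bar per region and its length and position in the list. All 3 bars cross the start (dotted line), and the black triangle at 50 bp marks the ETS pattern in the Nras region, the only one among them.

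The count of member starts was set against all protein-coding genes. An Etv4 midpoint lay within 2 kb of the gene start in 3 of 7 members and in 15.4% of all genes (3386 of 21938). For Etv5 the figures were 0 of 7 and 8.73% (1916 of 21938). With 7 genes that were chosen with results known, these counts describe the genes and were not tested. The 3 member starts remained at distances of 1 and 5 kb, with the start of any annotated transcript, and when any base of the region was counted. They did depend on the length of the Etv4 list. When it was cut to its first 8297 regions by number, the length of the Etv5 list, Map2k1 alone was left.

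The absence of Etv5 regions at these starts was read against other gene starts. Of the 3210 Etv4 regions within 2 kb of a protein-coding gene start, 72.8% did not overlap an Etv5 region, so the state of Nras, Map2k1 and Map2k2 was that of most such regions. Overlap was more frequent at low region numbers, whose criterion the files do not state. Among gene-start regions in the same decile of the Etv4 list as the Map2k1 region, 37.2% overlapped an Etv5 region (interval 31.3 to 43.4%). For the deciles of the Nras and Map2k2 regions the shares were 19.6% (interval 15.6 to 24.0%) and 16.6% (interval 12.9 to 20.8%). Intervals here are exact 95% binomial intervals, which cover counting error only and treat neighbouring regions as independent.

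**Figure D2:**
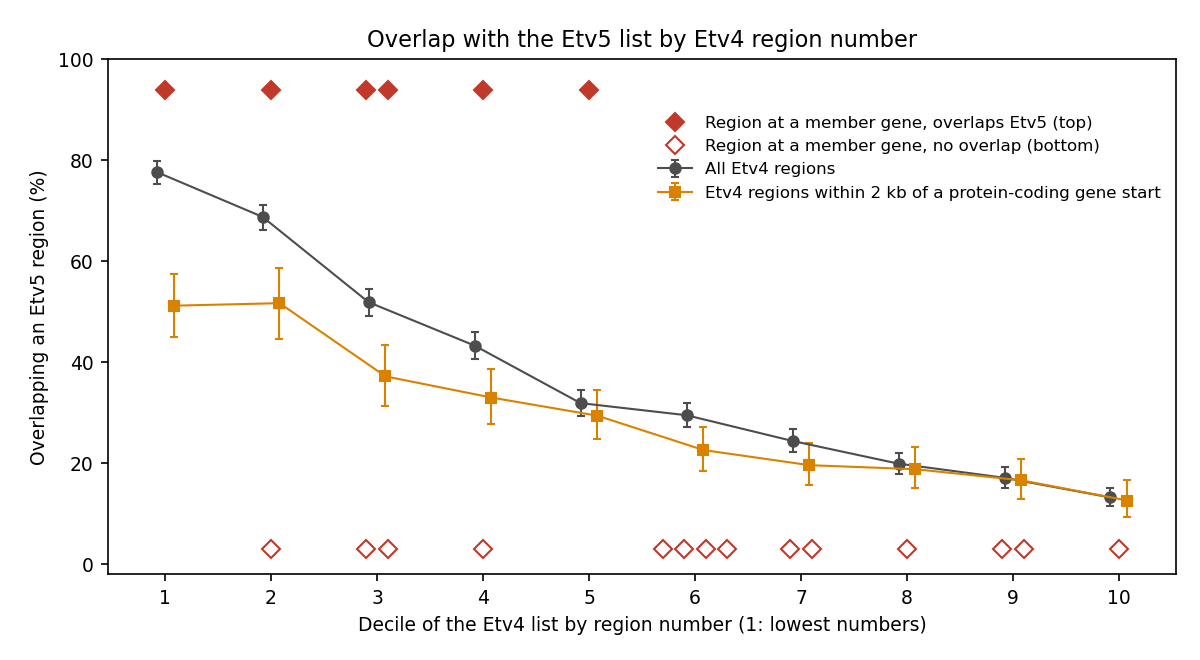
Share of Etv4 regions that overlap an Etv5 region (y axis, %) in each decile of the Etv4 list by region number (x axis), for all regions (circles) and for regions within 2 kb of a protein-coding gene start (squares), with 95% binomial intervals as bars. Diamonds are the 20 regions at the member genes, drawn at a fixed height whatever the y axis reads: the 6 filled ones overlap Etv5 and all fall in the first 5 deciles, and the 14 open ones do not.

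Hras, Rras2, Braf and Mapk3 had no region of either list at the start or inside the gene. Across the members, an Etv4 region overlapped the gene in 3 of 7 (23.0% of all genes) and an Etv5 region in 0 of 7 (14.7% of all genes). Within 50 kb, an Etv4 region was listed for 7 of 7 members and for 53.4% of all genes. An Etv5 region was listed for 4 of 7 members (Hras, Rras2, Map2k2 and Mapk3) and for 42.7% of all genes. The number of Etv4 regions ranged from 1 at Braf to 6 at Map2k2, and the number of Etv5 regions from 0 at Nras, Braf and Map2k1 to 4 at Hras. The means were 2.86 and 1.43 regions per member, compared with 1.48 and 0.84 over all genes. The members also lay among more genes, with a median of 6 other protein-coding genes within 50 kb against 3 for all genes. The stretch searched grew with gene length as well, from 105 kb at Hras to 222 kb at Braf. How far gene density or length contributed to the counts was not tested.

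**Figure D3:**
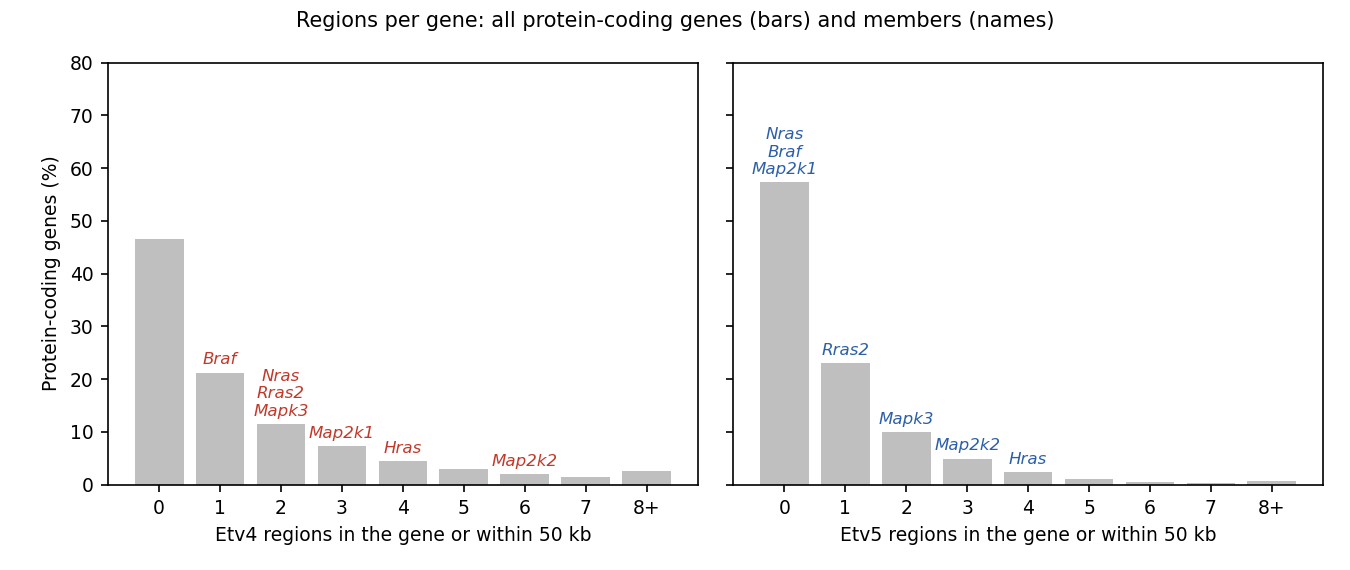
Percentage of the 21938 protein-coding genes (y axis) with each number of Etv4 (left) or Etv5 (right) regions in the gene or within 50 kb (x axis), as bars, with the members named above the bar of their own count. All 7 members have at least 1 Etv4 region, whereas Nras, Braf and Map2k1 stand in the Etv5 class of 0.

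**Figure D4:**
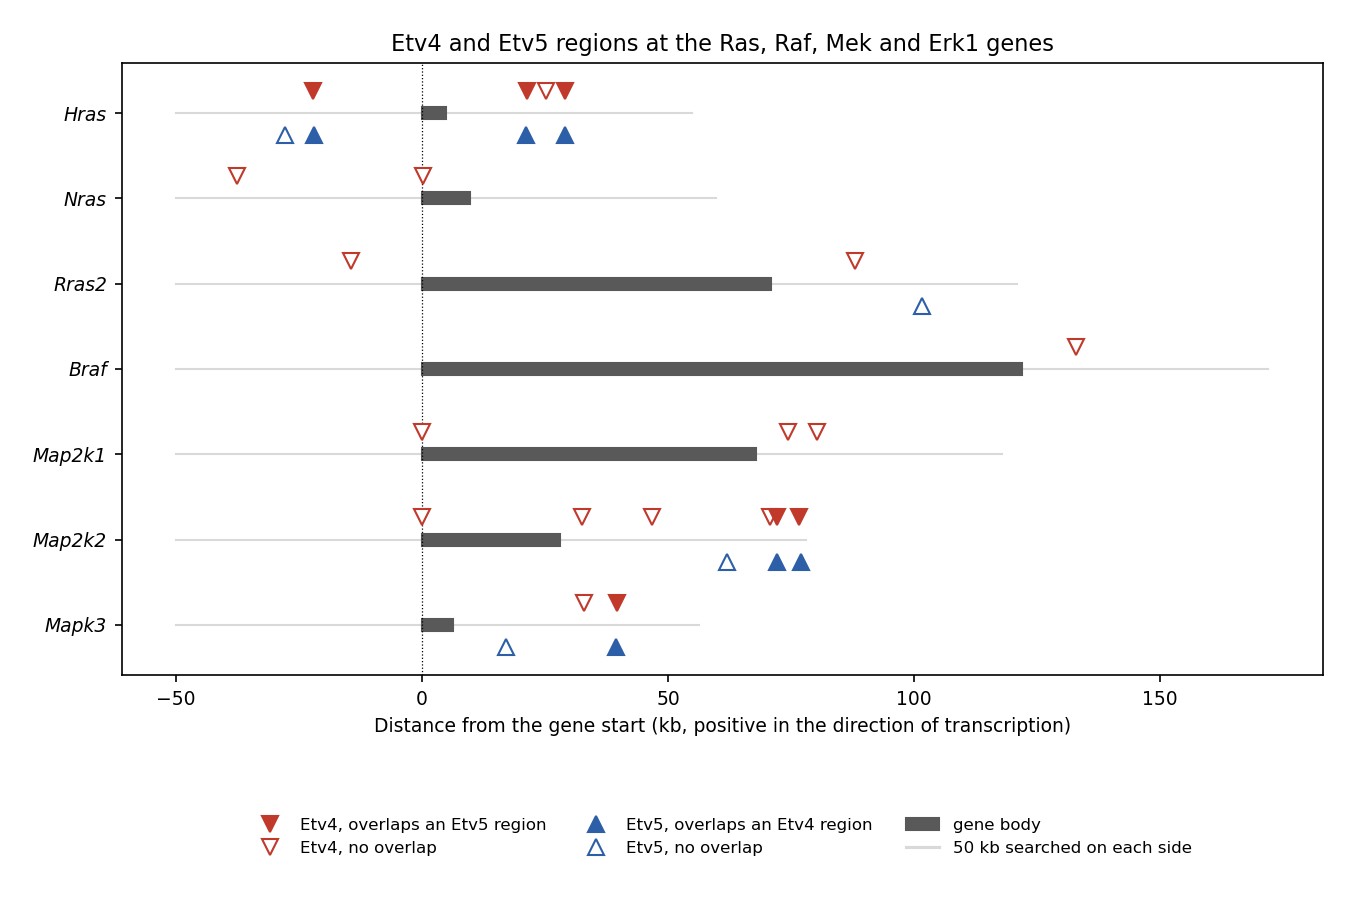
Midpoints of Etv4 (downward triangles) and Etv5 (upward triangles) regions by distance from the start of each member gene (x axis, kb), with gene bodies in dark grey and the 50 kb searched on each side in light grey. Filled triangles overlap the other list. Nras, Map2k1 and Map2k2 have an open Etv4 triangle at 0 kb, and all filled triangles stand at least 21.1 kb from a member's start.

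Most regions in these neighbourhoods stood at other genes. The protein-coding gene with the nearest start was the member itself for 5 of 20 Etv4 regions and for 1 of 10 Etv5 regions. The Etv4 midpoint lay within 2 kb of another protein-coding gene's start in 11 cases and the Etv5 midpoint in 7. Counting the member starts as well, 14 of 20 Etv4 regions were at a protein-coding gene start, compared with 23.5% of the whole list, and 7 of 10 Etv5 regions, compared with 20.8%. The members' regions were collected around genes and those of the lists were not, and the part of this in the difference was not tested. By annotation, 16 Etv4 regions were within 2 kb of some transcript start, 3 were intronic and 1 was intergenic, and of the Etv5 regions 8 were within 2 kb of a transcript start and 2 were intronic. Over the lists, 36.4% of Etv4 and 33.0% of Etv5 regions were within 2 kb of a transcript start.

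Overlap of the lists was likewise found away from the members. Of the Etv4 regions, 6 of 20 overlapped an Etv5 region, compared with 37.8% of the list, and of the Etv5 regions 6 of 10 overlapped an Etv4 region, compared with 63.2%. These pairs stood near Hras (3 pairs), Map2k2 (2 pairs) and Mapk3 (1 pair). A neighbourhood with an overlapping pair was thus present for 3 of 7 members and for 29.5% of all genes.

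Hras, whose oncogenic form was used to transform these cells, had the most overlap. The endogenous gene (chromosome 7, minus strand, 141189105 to 141194005) contained no region, and the nearest midpoints were 21.1 kb (Etv5) and 21.3 kb (Etv4) from its start. Upstream, an Etv4 region (141215766 to 141216456) and an Etv5 region (141215451 to 141216404) shared 639 bp at the start of Rassf7, which encodes a Ras association domain protein. Their midpoints were 251 and 67 bp after that start. An Etv5 region without overlap followed 27.9 kb upstream of Hras (141221621 to 141222247).

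Downstream of Hras, regions clustered at Rnh1, which encodes a ribonuclease inhibitor. A pair at the start of Rnh1 (Etv4 141172419 to 141173056, Etv5 141172644 to 141173132) shared 413 bp. These regions carried the ETS pattern CCGGAAGT at 141172927 to 141172934, within the shared part. A second pair lay in an intron of Rnh1, 7.82 kb from the start of that gene (Etv4 141164703 to 141165370, Etv5 141164761 to 141165306). The Etv5 region of this pair lay wholly inside the Etv4 region. Between the pairs, 1 Etv4 region (141168694 to 141169134) had no Etv5 counterpart.

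The sequences of the Rnh1 pairs are shown because they hold different patterns. The first has the ETS match in capitals (chr7:141172901-141172960). The second has an AP-1 match (TGACTCA) and 2 RUNX matches in capitals (chr7:141164981-141165092), the latter written GACCACA since TGTGGTC lies on the minus strand. Both are given on the plus strand.
Rnh1 start: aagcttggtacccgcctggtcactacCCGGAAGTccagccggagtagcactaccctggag
Rnh1 intron: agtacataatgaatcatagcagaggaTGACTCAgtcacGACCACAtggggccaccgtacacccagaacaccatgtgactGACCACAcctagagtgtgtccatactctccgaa

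AP-1 factors (Fos and Jun dimers) and RUNX factors bind these patterns. In the intronic pair the AP-1 match was 26 bp from the Etv4 midpoint and 23 bp from the Etv5 midpoint, and the RUNX matches were 14 and 27 bp from the Etv4 midpoint. The ETS match at the start of Rnh1 was 43 bp from the Etv5 midpoint and 194 bp from the Etv4 midpoint.

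Mapk3 (chromosome 7, plus strand, 126759601 to 126765819) had no region inside it. The closest was an Etv5 region without overlap, 17.0 kb from its start (126776449 to 126776844, number 6254 of the Etv5 list). It lay 309 bp upstream of the start of Ypel3. At 33.0 kb, the Etv4 region from 126792131 to 126793028 covered the start of Ppp4c, the catalytic subunit of protein phosphatase 4. This region had the most ETS matches among the member regions, with CCGGAAGT at 3 positions (126792498 to 126792505 on the minus strand, and 126792546 to 126792553 and 126792606 to 126792613 on the plus strand). The matches were 77, 29 and 31 bp from the midpoint. Of 13630 nuclear Etv4 regions, 3 had 3 or more matches in the central 300 bp, which is 0.022%. The region had no Etv5 counterpart, and the gap to the nearest Etv5 region was 5.74 kb. The stretch with the matches is shown on the plus strand (chr7:126792472-126792639), where the minus-strand match reads ACTTCCGG.
Ppp4c start: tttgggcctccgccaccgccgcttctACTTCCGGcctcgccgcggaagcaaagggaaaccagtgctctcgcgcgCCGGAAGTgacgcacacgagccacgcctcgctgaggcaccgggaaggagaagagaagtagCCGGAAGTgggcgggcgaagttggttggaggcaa

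The overlapping pair near Mapk3 was 39.5 kb from its start (Etv4 126798579 to 126799640, Etv5 126798767 to 126799315), in Aldoa and Fam57b, and 1.44 kb past the start of Fam57b by the Etv4 midpoint. Aldoa encodes the glycolytic enzyme aldolase A. The whole Etv5 region of 549 bp lay inside the Etv4 region. AP-1 matches were present here, 2 in the Etv4 region and 1 in the Etv5 region.

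Around Map2k2, 5 Etv4 regions and all 3 Etv5 regions were downstream. Etv4 regions lay in Zbtb7a, which encodes a zinc finger repressor (81138275 to 81138613 and 81152397 to 81152905), and did not overlap Etv5 regions. At Eef2, the gene of translation elongation factor 2, an Etv4 region covered the start (81176357 to 81176994), and the gap to the next Etv5 region was 0.838 kb. The first overlapping pair was found there, 1.43 kb past the start of Eef2 by the Etv4 midpoint, with 543 bp in common. The second pair was near the start of Dapk3, a death-associated protein kinase gene. Its Etv4 region was the longest at any member (81181701 to 81183293, 1593 bp, number 716), and 28.4% of it was shared with the Etv5 region. The Etv5 region at the start of Pias4, a SUMO ligase gene (81167491 to 81168325, number 1119), had no Etv4 counterpart and carried the lowest number of the 10 Etv5 regions at the members.

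Rras2 (chromosome 7, minus strand, 114046782 to 114117781) encodes a Ras-related GTPase. It was the only member with distal regions whose nearest protein-coding gene start was its own. An intergenic Etv4 region lay 14.5 kb upstream (114131880 to 114132672). The others were in introns of the neighbouring gene Spon1, an Etv4 region 88.0 kb from the Rras2 start (114029511 to 114030056) and an Etv5 region at 102 kb (114016094 to 114016434), and they were 13.1 kb apart. The intronic Etv4 region had an AP-1 match 10 bp from its midpoint, and is shown on the plus strand because it is the only pattern match other than Sp/KLF in the Etv4 regions of Rras2 (chr7:114029764-114029822).
Spon1 intron: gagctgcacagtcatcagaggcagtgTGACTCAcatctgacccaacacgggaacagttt

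Braf (chromosome 6, minus strand, 39603237 to 39725463), the Raf kinase examined here, had a single Etv4 region. It lay 10.5 kb beyond the end of the gene (39592459 to 39592776) and 43 bp past the start of Ndufb2, a subunit of respiratory complex I. With 318 bp and number 12994, it was the shortest of the 20 Etv4 regions at the members and had the highest number among them. The nearest Etv5 region was 763 kb from it.

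The patterns were also counted over all member regions, in 300 bp around the midpoint and on both strands. ETS patterns were present in 2 of 20 Etv4 regions and 1 of 10 Etv5 regions, compared with 7.05 and 5.18% of the lists. AP-1 patterns (TGACTCA or TGAGTCA) were present in 3 and 1, compared with 30.9 and 27.7%. Etv4 regions at protein-coding gene starts had the AP-1 pattern in 8.41% of cases, the ETS pattern in 10.7% and the Sp/KLF pattern in 49.3%. Sp/KLF patterns were found in 11 of 20 Etv4 regions and 5 of 10 Etv5 regions at the members, and in 18.0 and 17.1% of the lists. RUNX patterns (TGTGGTT or TGTGGTC) were present in 1 Etv4 and 2 Etv5 regions, and in 17.4 and 16.4% of the lists. The ETS letters written backwards (TGAAGGCC or TGAAGGAC) were in none of the 30 windows, and in 2.13 and 2.38% of the lists. This control has the same base counts but lacks the CG of CCGGAAGT. In whole regions it was found in 1 Etv4 region. With 20 and 10 regions, the member counts are too small to rank against these shares.

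Little of these regions was repeated elsewhere in the genome. Measured in stretches of 36 bases, the share found at several places on the nuclear chromosomes was at most 12.3% in Etv4 regions (the one near Dapk3) and at most 10.8% in Etv5 regions (at Eef2). It was 0.273% in the Nras region and 0.0% in the regions at the starts of Map2k1 and Map2k2. The median length was 638 bp for the 20 Etv4 regions and 544.5 bp for the 10 Etv5 regions, near the medians of 589 and 532 bp of the lists.

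The search distance of 50 kb left some regions just outside. The nearest of these were an Etv5 region 53.9 kb from Rras2, an Etv4 region 59.1 kb from Map2k2 and an Etv4 region 63.5 kb from Rras2. Just inside were an Etv5 region 48.8 kb and an Etv4 region 47.7 kb from the end of Map2k2.

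A further 42 genes of the pathway were examined in the same way, which comprised other Ras, Raf and ERK genes, adaptors, exchange factors, GTPase-activating proteins, scaffolds and effectors. An Etv4 region was within 50 kb of 29 of them (69.0%) and an Etv5 region within 50 kb of 26 (61.9%), and 8 had neither. Over all protein-coding genes these shares were 53.4 and 42.7%, as given above. At the gene start, 11 had an Etv4 region (26.2%) and 7 an Etv5 region (16.7%), against the 15.4 and 8.73% of all genes given above. Regions of both lists were at the starts of 5, Etv4 regions alone at 6, and Etv5 regions alone at 2. For these classes, and for the 8 genes with neither, no share over all genes was taken. They are counts only.

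Of the genes upstream of Ras, the adaptor genes Grb2 and Gab1 had overlapping regions of both lists at their starts. Sos1, a Ras exchange factor, had an Etv5 region alone, 123 bp upstream. Among genes whose products switch Ras off, Nf1 (neurofibromin) had an Etv4 region alone, 87 bp upstream (number 10503), and Rasa3 had regions of both lists. Shoc2, a scaffold that promotes Raf activation, had an Etv4 region alone, 318 bp upstream.

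Among effectors, Rin1 had the most regions, with 11 Etv4 and 7 Etv5 regions within 50 kb, and overlapping regions at its start (numbers 1118 and 612). Over all protein-coding genes, 2.63% had 8 or more Etv4 regions. Etv4 regions alone were at the starts of Ralb, a Ras-like GTPase, Pik3ca, the catalytic PI3-kinase subunit, and Elk4, an ETS factor that ERK phosphorylates, with midpoints 209 bp downstream, 860 bp upstream and 61 bp downstream. The regions at Ralb, Pik3ca and Elk4 carried the numbers 11084, 7327 and 13132. Of the 42 genes, 29 had no region of either list within 2 kb of the start, a count that was not set against all genes.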

How the data were processed

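ChIP-seq lists from TGF-β3-treated EpRas cells were used, 1 per antibody. Per the labels, reads were mapped to mm10 with Bowtie. According to the methods, the authors called regions by one-sample analysis of CisGenome with a window of 300 bp and a lenient p cutoff. One-sample analysis uses no input library, so copy number and open chromatin are not corrected for. The deposited score is 1000 for every region and was not used. The name column numbers the regions by a criterion not given in the sources used here. No counts are given, so depth and its precision are unknown.

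Sequence was read from GRCm38 and genes from GENCODE M21. Coordinates count from 1. The start of a gene is the outermost annotated start, and distances run to region midpoints. A region belonged to a gene when any of its bases lay in the gene or within 50 kb. Lists overlapped by at least 1 bp. Each antibody has 1 library, so no test was made. The members, the list of 42 pathway genes, of which all matched, and the patterns were chosen with earlier results of these data known. All regions of the members are counted, and pathway genes are named where a region lies within 2 kb of the start, except for some that are not reported here. Functions were tested on simulated data. The software was matplotlib 3.10.9, scipy 1.17.1, pandas 2.3.3, numba 0.67.0 and numpy 2.4.6 on Python 3.11.15. Alternatives are given in the closing section.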

Additional observations from a re-analysis of the deposited data

How the results depend on the processing

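Under the alternatives, 27 of 48 values stayed within 1.5 times the main count or within the interval of the main share, and 21 moved. Shorter distances and shortened lists keep fewer regions by construction, and for the other settings the cause was not tested. Within 10 kb of the genes, 5 Etv4 and 0 Etv5 regions were left of 20 and 10, and in the gene body with 2 kb upstream 3 and 0. The 5 Etv4 regions were at Nras, Map2k1 and Map2k2, so that the other members had no region within 10 kb. The longer 50% of each list held 12 Etv4 and 6 Etv5 regions, and the first 50% by number held 10 Etv4 regions, with 1 member start (Map2k1) in place of 3. The share of all protein-coding genes with an Etv4 or Etv5 region was 33.2 and 23% within 10 kb, and 35.7 and 26% within 50 kb in the first 50% of the lists. For gene starts, a limit of 1 kb gave 13.9 and 7.55%, a limit of 5 kb gave 18.2 and 10.7%, and the first 50% of the lists gave 7.15 and 3.93%. In whole regions the ETS pattern was found in 4 Etv4 regions and the AP-1 pattern in 2 Etv5 regions, and in 500 bp the AP-1 pattern was found in 3 Etv5 regions. The count of overlapping regions at the members stayed at 5 or 6 of each list under the 4 alternatives run, but the share did not. Of the Etv4 regions, 6 of 20 overlapped in the full lists and 6 of 10 in the first 50% by number. With the Etv4 list cut to the length of the Etv5 list it was 6 of 15. The 6 Etv4 regions with overlap have low numbers, so cuts by number did not remove them. No paired analysis was possible because neither list has a replicate and no result comes from a test. Without read counts, a region missing from a list cannot be told apart from one below the authors' threshold.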
